A study of Homo sapiens with 18 samples.

Results

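The 42 genes described here code for DNA repair and Fanconi anaemia proteins and were chosen by name, with earlier results of these data known. Shares of members set beside shares of all genes therefore describe this list and are no independent test of it. A probe set of the exon array was taken when its only gene symbol in the platform's annotation was that of a member, and the log2 values of all such probe sets of a gene were averaged on each array. All 42 genes were measured among 16241 in all, by 1126 probe sets, from 8 for XRCC2 to 106 for PRKDC. MRE11 is listed on the platform under an older symbol. The arrays came from 3 established human myeloid lines, the promyelocytic leukaemia line HL60, the monocytic leukaemia line THP-1 and the monocyte-like line U937. Each line was given, for 3 days, either PMA (phorbol 12-myristate 13-acetate, a protein kinase C activator that makes such lines stop dividing and take on macrophage features) at 30 nM or its solvent DMSO at a dilution of 1000. The 18 arrays form 6 groups of 3, HL60, THP-1 and U937 with DMSO and the same lines with PMA, and no genotype or other agent is named for any group. The labels number the arrays of a group without saying whether they were separate cultures, so the p-values speak only of the spread among these arrays, which may be technical.

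Cells mend DNA by several routes. Homologous recombination copies the lost stretch from the sister chromatid and therefore works mainly in S and G2 phase, while non-homologous end joining ligates broken ends in any phase. The Fanconi anaemia proteins unhook crosslinks between the strands, and mismatch, base excision and nucleotide excision repair replace damaged or wrong bases on 1 strand. Many genes of the recombination and Fanconi routes are known to be transcribed with the cell cycle through E2F and DREAM factors, whose sites lie close to the transcription start, and levels of their messages are usually low in cells that have left the cycle.

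Promoter windows of 300 bases (250 before and 50 after a transcription start, RefSeq, GRCh38.p14) were at hand for 36 of the 42 genes, in 55 windows, and none for FANCI, NBN, PRKDC, RAD54B, WRN and XRCC5. They are shown because most members moved together. Each was searched on both strands for an E2F core (TTCCCGC or TTGGCGC or TTCGCGC or TTGCCGC), for a CHR element (TTTGAA or TTCGAA) and for CCAAT. Below stand the windows of the 5 members with the largest mean decrease over the 3 lines among those that hold an E2F core, the helicases BLM and BRIP1, the recombination cofactor RAD51AP1, the exonuclease EXO1 and BRCA1. They lie at chr15:90717096-90717395 (plus strand, BLM), chr12:4538640-4538939 (plus, RAD51AP1), chr17:61863479-61863778 (minus, BRIP1), chr1:241847954-241848253 (plus, EXO1) and chr17:43125315-43125614 (minus, BRCA1). Capitals mark the E2F cores, and a core on the opposite strand reads as its reverse complement.
BLM: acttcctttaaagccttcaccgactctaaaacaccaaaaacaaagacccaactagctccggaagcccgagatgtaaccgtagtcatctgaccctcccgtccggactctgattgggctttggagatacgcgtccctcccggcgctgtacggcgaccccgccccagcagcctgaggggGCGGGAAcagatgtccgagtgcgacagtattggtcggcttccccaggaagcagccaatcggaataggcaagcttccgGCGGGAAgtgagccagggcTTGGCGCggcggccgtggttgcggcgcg
RAD51AP1: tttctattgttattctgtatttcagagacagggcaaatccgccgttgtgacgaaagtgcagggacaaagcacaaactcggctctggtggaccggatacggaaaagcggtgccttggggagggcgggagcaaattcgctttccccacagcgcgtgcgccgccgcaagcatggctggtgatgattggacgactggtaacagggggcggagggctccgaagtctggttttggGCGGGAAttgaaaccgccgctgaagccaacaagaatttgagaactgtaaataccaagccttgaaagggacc
BRIP1: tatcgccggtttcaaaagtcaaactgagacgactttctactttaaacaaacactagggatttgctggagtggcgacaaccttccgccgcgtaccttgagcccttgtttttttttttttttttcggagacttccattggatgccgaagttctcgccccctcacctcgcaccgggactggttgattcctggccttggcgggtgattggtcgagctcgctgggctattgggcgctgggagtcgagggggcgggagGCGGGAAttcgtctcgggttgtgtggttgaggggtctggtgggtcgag
EXO1: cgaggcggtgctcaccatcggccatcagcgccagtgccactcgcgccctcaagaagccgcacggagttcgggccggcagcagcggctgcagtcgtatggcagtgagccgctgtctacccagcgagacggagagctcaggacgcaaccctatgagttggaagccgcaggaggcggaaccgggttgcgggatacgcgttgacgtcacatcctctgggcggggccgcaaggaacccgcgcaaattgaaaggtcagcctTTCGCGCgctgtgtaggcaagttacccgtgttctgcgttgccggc
BRCA1: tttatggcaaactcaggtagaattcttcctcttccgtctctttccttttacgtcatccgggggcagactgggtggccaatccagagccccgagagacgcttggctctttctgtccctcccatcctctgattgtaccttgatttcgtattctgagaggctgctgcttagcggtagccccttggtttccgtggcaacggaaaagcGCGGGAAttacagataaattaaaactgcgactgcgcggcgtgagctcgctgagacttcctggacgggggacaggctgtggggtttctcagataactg
BLM holds 3 cores, with first letters at positions -74, 4 and 23 from the start. Those of RAD51AP1 and BRCA1 begin at -21 and -47, and those of BRIP1 and EXO1 at 3 and 6.

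An E2F core was found in 27 of the 55 member windows (49.1%), against 16.4% of the 18640 windows of all genes measured and 13% of all 35116 windows. By gene these were 20 of 36 members (55.6%) against 21.4% of 12952 genes. Among members lower with PMA in all 3 lines (below) 13 of 21 genes with a window held one (61.9%), and among the rest 7 of 15 (46.7%). CCAAT was found in 50.9% of member windows against 34.5% of windows of all genes measured, and a CHR element in 9.09% against 13.3%. CHEK1, BRCA2, FANCB, FANCM, ERCC2, LIG3, MRE11 and RAD51C, which fell in all 3 lines, held no E2F core in their windows. ERCC1, which rose in HL60, held one. The median of the mean change over the 3 lines was -1.54 in members with a core and -1.27 in those without. It was -1.74 in the 6 members that had no window. A match is a run of letters, not a measured binding site, and its absence says only that these letters are not in the window.

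Before the results, some facts of the arrays bear on every value. The median log2 value of an array was lowest on U937 PMA 2, at 6.18, and highest on U937 DMSO 1, at 6.95, and Pearson correlations of arrays within a group ran from 0.931 to 0.978. Only 83228 different values occur on U937 PMA 2, where each of the others has 214471 to 220516, so the U937 counts are also given without both arrays numbered 2. Pairs of arrays of one line shared 39 to 116 exact values and pairs from different lines 0 to 7, with pairs that include a U937 array numbered 2 at 0 to 5. Whether the lines were normalized together is thus unknown, and levels are compared only within a line. Of 10 myeloid markers 9 or 10 lay above 5.17 log2, the 30th percentile of all probe sets, in every group, with mean levels from 8.07 to 9.73 by array. Of 8 T and NK cell markers 2 or 3 did, NKG7 highest, of 4 measured B cell markers all 4 did at means from 5.19 to 6.18, and of 8 epithelial and fibroblast markers 4 or 5 did, KRT8 highest. Their part in the results was not tested. RNA came from whole cultures, in which fewer cells with a message and less message per cell cannot be told apart.

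With PMA most of the repair genes fell in every line. In HL60 28 of the 42 were lower and 1 was higher, in THP-1 32 and 0, and in U937 37 and 0 (limma, adjusted p under 0.05 over all genes). Over all genes tested 10.7% were called lower in HL60, 13.2% in THP-1 and 16.5% in U937, and 12.3%, 9.38% and 5.5% higher. The median change of the members was -1.65, -1.36 and -1.71 log2 units, where the median of all genes was 0.13, 0.04 and -0.07. Lower in all 3 lines were 25 members (5.94% of all genes), in 2 lines 9, in 1 line 4, and in none 4, namely ERCC1, XPA, XRCC4 and LIG4 (77.2% of all genes). Every one of the 3 PMA arrays lay below every DMSO array for 31, 32 and 37 members, against 16.4%, 19.8% and 19.5% of all genes, and above for 1, 0 and 0, against 29.7%, 23.2% and 5.86%. At least 2-fold lower and called were 25, 25 and 32 members, against 6.71%, 7.38% and 10.1% of all genes. A lower mean with PMA, called or not, was seen in 38, 41 and 41 members, and in 5996, 7527 and 9602 of all 16241 genes. Of the members' 1126 probe sets 1035, 1076 and 1084 had a lower mean, and the share over all probe sets was not computed.

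The whole table's split of calls depends on scaling, since 46.4%, 58.5% and 75% of called genes were lower in HL60, THP-1 and U937 as deposited but 48.2%, 49.9% and 51.7% after quantile normalization. That normalization moved the median of all genes in U937 from -0.07 to 0.12, and centring moved it to 0.17. The members called lower went from 28, 32 and 37 to 33, 33 and 35 with quantile normalization and to 33, 32 and 36 with centring. Both scalings added ATM, ATR, FANCL, PALB2 and PMS2 in HL60. Without both U937 arrays numbered 2, 30 members were called lower in U937, with a median of -1.6, and the calls of FANCL, MSH6, PALB2, PMS2, RAD50, XRCC5 and XRCC6 were lost (adjusted p = 0.229, 0.0557, 0.297, 0.276, 0.112, 0.0929 and 0.169). All members lay above 5.17 log2 with DMSO, but 14, 6 and 7 of them had PMA means below it, near the dim end of the scale. BRCA2, BRIP1, FANCB, FANCM, RAD51AP1 and RAD54B were below it with PMA in every line, which leaves the size of their falls uncertain.

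**Figure D1:**
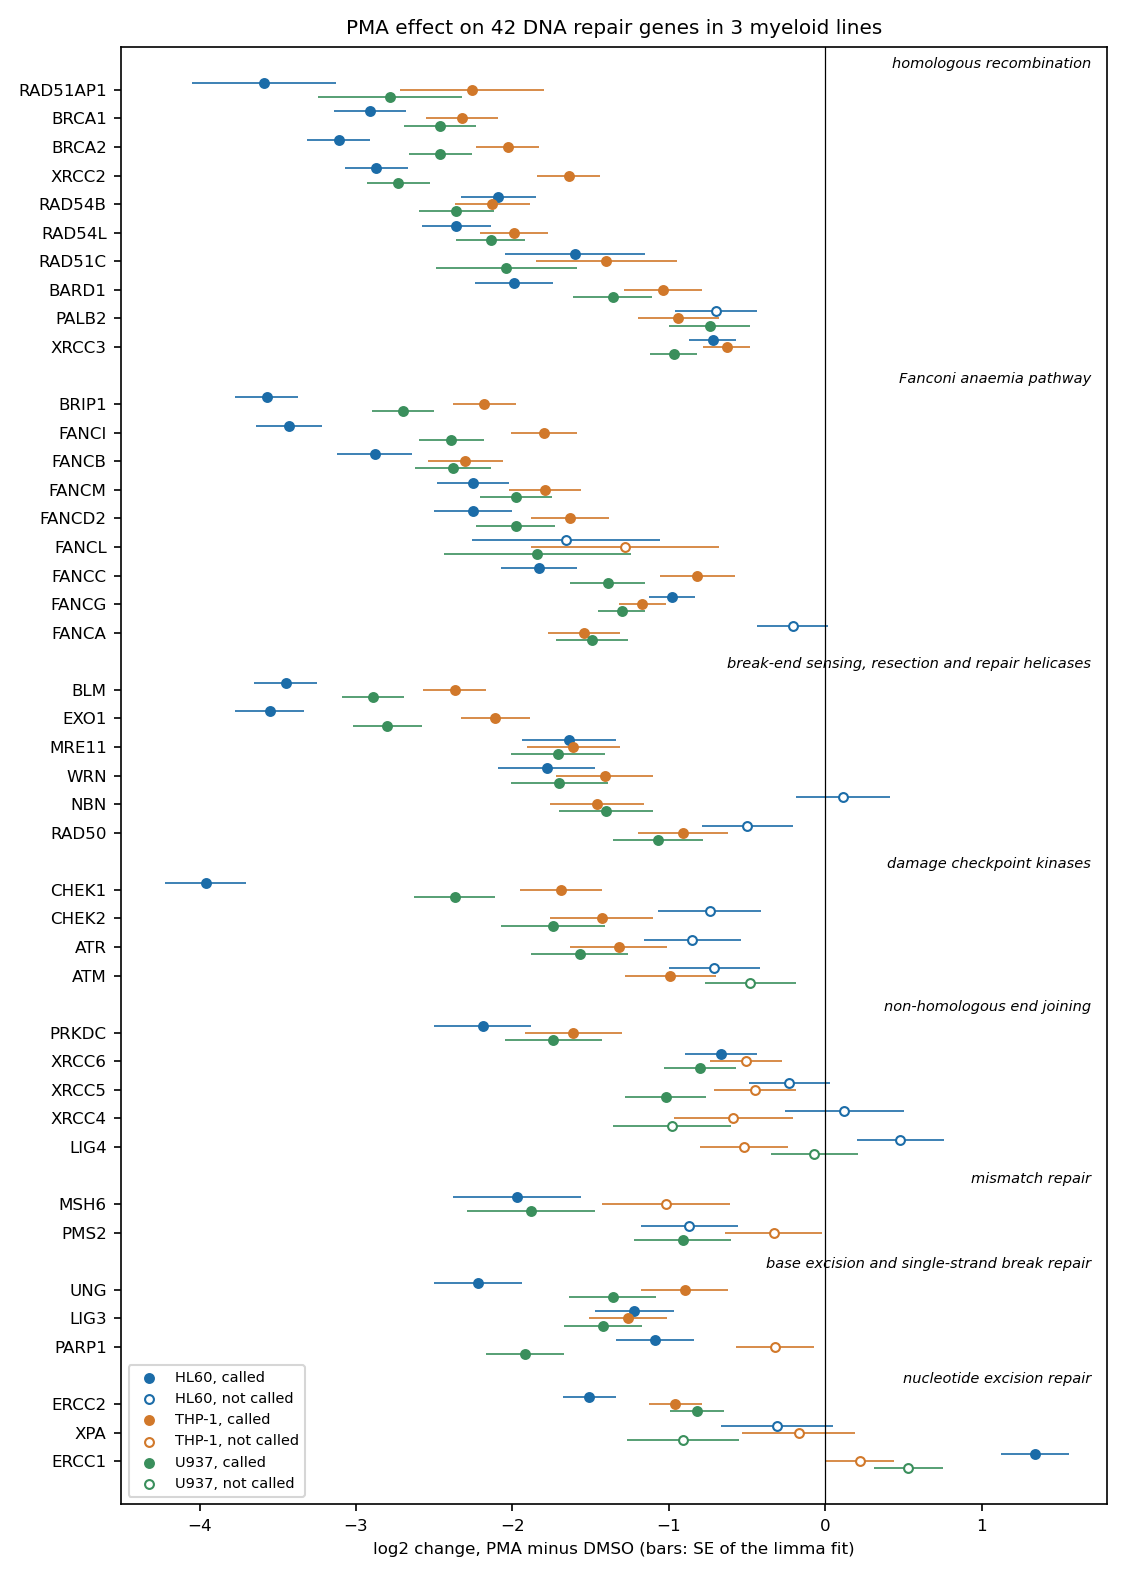
Change of each of the 42 repair genes with PMA (x axis, log2 units, PMA minus DMSO; bars, SE of the limma fit; 3 arrays a group), ordered by repair route, in HL60, THP-1 and U937. Filled points were called and open points were not; nearly all lie left of 0, with ERCC1 in HL60 the sole filled point to the right.

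In homologous recombination nearly every member fell, 9 of 10 in HL60 and 10 of 10 in both THP-1 and U937, with median changes of -2.23, -1.81 and -2.25. BRCA1, a ubiquitin ligase that steers breaks into recombination, read 8.07, 8.02 and 7.52 log2 on the HL60 arrays with DMSO and 4.84, 4.95 and 5.09 with PMA. In THP-1 its values were 7.86, 8.14 and 8.03 against 5.12, 5.71 and 6.25, and in U937 7.74, 7.59 and 7.87 against 5.35, 5.1 and 5.38. No PMA array reached a DMSO array in any line. The change of BRCA1 was -2.91 ± 0.23 log2 units (SE; 7.5-fold lower) in HL60, -2.32 ± 0.23 (4.98-fold) in THP-1 and -2.46 ± 0.23 (5.49-fold) in U937, with adjusted p = 3.45e-08, 1.16e-06 and 8.7e-07.

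BRCA2, which loads the recombinase on single-stranded DNA, went from 6.94 ± 0.29 (SD, n = 3) to 3.83 ± 0.05 in HL60, from 5.85 ± 0.19 to 3.82 ± 0.38 in THP-1 and from 6.34 ± 0.21 to 3.88 ± 0.16 in U937. All 3 PMA means of BRCA2 were under 5.17. The drop was 8.64-fold in HL60, 4.08-fold in THP-1 and 5.52-fold in U937 (adjusted p = 3.39e-09, 1.15e-06 and 2.44e-07), with no overlap of arrays. BARD1, the partner of BRCA1 in its ligase, changed by -1.99 ± 0.25, -1.04 ± 0.25 and -1.36 ± 0.25 (adjusted p = 7.12e-06, 0.00446 and 0.000557). PALB2, which joins BRCA1 to BRCA2, showed smaller changes. In HL60 its change of -0.7 ± 0.26 missed the threshold (adjusted p = 0.0642), though every PMA array lay below every DMSO array, and with array numbers as a block it passed (adjusted p = 0.0139). Without HL60 DMSO 3, THP-1 DMSO 3 or U937 PMA 2 PALB2 also passed in HL60 (-0.89 to -0.7, adjusted p = 0.0275 to 0.0477).

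The PALB2 calls in the other lines were marginal. In THP-1 (-0.94 ± 0.26, adjusted p = 0.0133) leaving out DMSO 1, DMSO 2 or PMA 1 of that line ended the call, at -0.84 to -0.82 (adjusted p = 0.063 to 0.0724). In U937 (-0.74 ± 0.26, adjusted p = 0.0494) the call ended without any of 12 of the 18 arrays (adjusted p = 0.0513 to 0.193). It also ended with quantile normalization, the median of probe sets, genes with at least 1 probe set and only the arrays compared (adjusted p = 0.0559, 0.0898, 0.0519 and 0.112). The U937 change of PALB2 was -0.47 without the PMA 2 array, whose value of 6.85 lay below 7.66 and 7.67 on the other PMA arrays.

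RAD51AP1, an accessory factor that helps the recombinase pair strands, had large decreases and a wide spread between arrays. Its HL60 values were 8.34, 7.17 and 6.66 with DMSO and 4.23, 3.47 and 3.71 with PMA. In THP-1 they were 6.94, 7.35 and 5.59 against 4.27, 4.95 and 3.88, and in U937 7.88, 7.63 and 7.01 against 5.12, 4.94 and 4.12. The groups did not overlap, and the changes were -3.59, -2.26 and -2.78, each ± 0.46 (12-fold, 4.78-fold and 6.88-fold; adjusted p = 1.14e-05, 0.00148 and 0.000255). The PMA means of RAD51AP1, 3.8, 4.37 and 4.73, were all under 5.17. RAD54L and RAD54B, motor proteins that open the donor duplex, fell in every line. RAD54L changed by -2.36, -1.99 and -2.14 (each ± 0.22), and RAD54B by -2.09, -2.13 and -2.36 (each ± 0.24).

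Of the paralogues that assist the recombinase, XRCC2 fell most and XRCC3 least. XRCC2 went from 7.64 ± 0.31 to 4.77 ± 0.17 in HL60, from 7.46 ± 0.14 to 5.82 ± 0.35 in THP-1 and from 7.87 ± 0.17 to 5.13 ± 0.21 in U937 (n = 3 each). These are decreases of 7.32-fold, 3.11-fold and 6.65-fold (adjusted p = 8.86e-09, 1.18e-05 and 9.18e-08). XRCC3 changed by -0.72, -0.63 and -0.97 (each ± 0.15), with group SDs from 0.04 to 0.22. Its calls in HL60 and THP-1 were lost when the median of its probe sets replaced the mean (-0.39 and -0.47, adjusted p = 0.178 and 0.0967). RAD51C changed by -1.6, -1.4 and -2.04 (each ± 0.45). Its HL60 call (adjusted p = 0.0142) was lost without HL60 DMSO 1, PMA 2 or PMA 3 (-1.44 to -1.15, adjusted p = 0.0609 to 0.0977). Its THP-1 call (adjusted p = 0.0335) was lost without THP-1 DMSO 1, DMSO 2 or PMA 3 (-1.33 to -1.03, adjusted p = 0.0966 to 0.18). The latter was also lost with only the arrays compared (adjusted p = 0.0654) and when the pair of U937 arrays numbered 2 was left out (adjusted p = 0.0528). Both calls of RAD51C passed with the arrays' numbers as a block.

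In the Fanconi anaemia pathway 7 of 9 members fell in HL60, 8 in THP-1 and all 9 in U937, with medians of -2.25, -1.63 and -1.98. The pathway has a core complex that works as a ubiquitin ligase (FANCA, FANCB, FANCC, FANCG, FANCL and the DNA-binding motor FANCM), its paired substrates FANCD2 and FANCI, and downstream helicases such as BRIP1. FANCI, one of the substrate pair, read 9.08, 8.96 and 8.35 on the HL60 arrays with DMSO and 5.29, 5.2 and 5.6 with PMA. Its THP-1 values were 8.45, 8.84 and 8.55 against 6.5, 6.78 and 7.16, and its U937 values 9.57, 9.52 and 9.6 against 7.03, 7.11 and 7.38. The decrease of FANCI was thus 10.8-fold in HL60, 3.48-fold in THP-1 and 5.24-fold in U937 (adjusted p = 1.87e-09, 6.66e-06 and 4.88e-07), without overlap. FANCD2, the other substrate, whose probe sets can share sequence with pseudogenes, changed by -2.25, -1.63 and -1.98 (each ± 0.25).

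BRIP1, a helicase that binds BRCA1, was 7.44 ± 0.23 with DMSO and 3.87 ± 0.09 with PMA in HL60, 7.1 ± 0.2 and 4.92 ± 0.43 in THP-1, and 7.16 ± 0.16 and 4.46 ± 0.08 in U937 (n = 3 each). All 3 PMA means were under 5.17, and the folds were 11.9, 4.52 and 6.51 (adjusted p = 6.24e-10, 4.91e-07 and 9.18e-08). Within the core complex, FANCB, a scaffold subunit, changed most, by -2.88, -2.3 and -2.38 (each ± 0.24). FANCM changed by -2.25, -1.79 and -1.98 (each ± 0.23) and FANCG, an adaptor, by -0.98, -1.17 and -1.3 (each ± 0.15). FANCC, another subunit, changed by -1.83, -0.82 and -1.39 (each ± 0.24). The THP-1 call of FANCC (adjusted p = 0.0161) was lost without THP-1 DMSO 2 or PMA 1 (-0.73 and -0.72, adjusted p = 0.0753 to 0.0832).

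FANCA, another core subunit, differed by line. Its HL60 values were 7.45, 7.69 and 7.54 with DMSO and 7.07, 7.46 and 7.51 with PMA, groups that overlapped, for a change of -0.21 ± 0.23 (adjusted p = 0.568). In THP-1 they were 8.26, 8.37 and 8.41 against 6.68, 6.58 and 7.17, and in U937 8.33, 7.98 and 8.41 against 6.58, 6.38 and 7.3, with no overlap. There it changed by -1.54 ± 0.23 and -1.49 ± 0.23 (adjusted p = 7.19e-05 and 0.000116). FANCL, the ligase subunit, had the largest SE of the members, 0.6, with group SDs from 0.49 to 1.14. Arrays of one number lay high or low together with DMSO and with PMA. On the HL60 arrays FANCL read 7.44, 6.55 and 5.68 with DMSO and 5.84, 4.81 and 4.05 with PMA.

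Taken by number, FANCL was lower with PMA in every pair, by -1.6, -1.74 and -1.63 in HL60, -1.49, -1.35 and -1 in THP-1, and -1.81, -2.32 and -1.4 in U937. Lower in all pairs of a line were 37, 38 and 40 members in HL60, THP-1 and U937, and 26.4%, 31.4% and 30.4% of all genes. Without the block FANCL was called in U937 alone (-1.84 ± 0.6, adjusted p = 0.0358), not in HL60 (-1.66, adjusted p = 0.058) or THP-1 (-1.28, adjusted p = 0.152). With the array numbers as a block the SE of FANCL was 0.17 and it was called in all 3 (adjusted p = 4.01e-06, 6.02e-05 and 2.79e-06). Its U937 call without the block was lost when U937 DMSO 1, DMSO 2, PMA 2 or PMA 3 was left out (-1.76 to -1.58, adjusted p = 0.0968 to 0.145), with quantile normalization (adjusted p = 0.0613) and with centring (adjusted p = 0.053). Leaving out THP-1 DMSO 3, which read 5.94 against 7.84 and 7.99, brought FANCL past the threshold in THP-1 at -1.94 (adjusted p = 0.0224). In HL60 it passed without HL60 DMSO 3, HL60 PMA 1, THP-1 DMSO 3 or THP-1 PMA 3 (-2.13 to -1.66, adjusted p = 0.0228 to 0.0404).

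Among the 6 proteins that sense and process break ends, 4 fell in HL60 and all 6 in THP-1 and U937. BLM, the helicase lost in Bloom syndrome, which dissolves recombination intermediates, had the largest mean decrease of all 42 members. With DMSO and PMA it read 8.05, 7.76 and 7.53 against 4.42, 4.31 and 4.28 in HL60. The THP-1 values were 7.54, 7.83 and 7.4 against 4.87, 5.25 and 5.54, and those of U937 8.13, 7.83 and 8.21 against 5.37, 4.91 and 5.23. Each line showed a wide gap between its groups, and the folds were 10.9, 5.18 and 7.4 (adjusted p = 9.89e-10, 1.85e-07 and 4.64e-08). EXO1, an exonuclease that resects break ends and also serves mismatch repair, changed by -3.55, -2.11 and -2.8 (each ± 0.22; adjusted p = 2.26e-09, 2.15e-06 and 1.76e-07). WRN, the Werner syndrome helicase, changed by -1.78, -1.41 and -1.7 (each ± 0.31).

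The MRN complex, which first binds a break, has 3 subunits. MRE11, its nuclease, changed by -1.64, -1.61 and -1.71 (each ± 0.3). It was lower in every pair of arrays, as were 26.4%, 31.4% and 30.4% of all genes in HL60, THP-1 and U937. NBN, the subunit that recruits ATM, read 8.18, 7.78 and 7.38 with DMSO and 8.21, 7.9 and 7.56 with PMA in HL60, overlapping ranges and a change of 0.11 ± 0.3 (adjusted p = 0.836). In THP-1 NBN was 8.04, 8.27 and 7.46 against 5.96, 7.15 and 6.27, and in U937 8.28, 8.18 and 8.23 against 7.18, 6.39 and 6.92. In these lines it changed by -1.46 ± 0.3 and -1.4 ± 0.3 (adjusted p = 0.00167 and 0.00231). RAD50, the coiled-coil subunit that tethers the ends, changed by -0.5 ± 0.29 in HL60 (adjusted p = 0.258), -0.91 ± 0.29 in THP-1 (adjusted p = 0.0299) and -1.07 ± 0.29 in U937 (adjusted p = 0.0119). The THP-1 call of RAD50 was lost without THP-1 DMSO 1, DMSO 2 or PMA 1 (-0.9 to -0.6, adjusted p = 0.0794 to 0.191) and with only the arrays compared (adjusted p = 0.067). The U937 call was lost without U937 PMA 2 (-0.8, adjusted p = 0.0634).

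Of the 4 kinases of the damage checkpoint 1 was called lower in HL60, 4 in THP-1 and 3 in U937, and only CHEK1 passed a test of the difference between lines. CHEK1, which holds cells in S and G2 phase and answers to ATR, had the largest single change of the list in HL60. Its HL60 values were 9.27, 8.75 and 8.33 with DMSO and 5.17, 4.63 and 4.67 with PMA, in THP-1 8.7, 8.98 and 8.03 against 6.73, 7.17 and 6.74, and in U937 9.11, 8.88 and 8.53 against 6.54, 6.45 and 6.4. The decrease was 15.5-fold in HL60, 3.23-fold in THP-1 and 5.18-fold in U937 (adjusted p = 5.07e-09, 0.000134 and 5.14e-06), with no overlap. The other kinases were not called in HL60, although for all but CHEK2 every PMA array there lay below every DMSO array.

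ATR, which responds to stalled forks, changed by -0.85 ± 0.31 in HL60 (adjusted p = 0.0543), -1.32 ± 0.31 in THP-1 (adjusted p = 0.00406) and -1.57 ± 0.31 in U937 (adjusted p = 0.0011). CHEK2, whose probe sets can share sequence with pseudogene copies, changed by -0.74 ± 0.33 in HL60 (adjusted p = 0.122), -1.43 ± 0.33 in THP-1 (adjusted p = 0.00349) and -1.74 ± 0.33 in U937 (adjusted p = 0.000758). ATM, the main kinase for double-strand breaks, changed by -0.71 ± 0.29 in HL60 (adjusted p = 0.0993), -0.99 ± 0.29 in THP-1 (adjusted p = 0.0205) and -0.48 ± 0.29 in U937 (adjusted p = 0.312). With the array numbers as a block the HL60 changes of ATR, CHEK2 and ATM passed (adjusted p = 0.00281, 0.00644 and 0.00389), as did that of ATM in U937 (adjusted p = 0.0361).

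Single arrays decided some of these calls. Without HL60 DMSO 3 CHEK2 passed in HL60 at -1.06 (adjusted p = 0.0294). ATR passed there without HL60 DMSO 3, HL60 PMA 1, THP-1 PMA 1, THP-1 PMA 2, U937 PMA 2 or U937 PMA 3 (-1.07 to -0.85, adjusted p = 0.0292 to 0.0454). The THP-1 call of ATM was lost without THP-1 DMSO 2, DMSO 3 or PMA 1 (-0.95 to -0.65, adjusted p = 0.0646 to 0.144), with the median of probe sets (adjusted p = 0.0592) and with only the arrays compared (adjusted p = 0.0557).

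**Figure D2:**
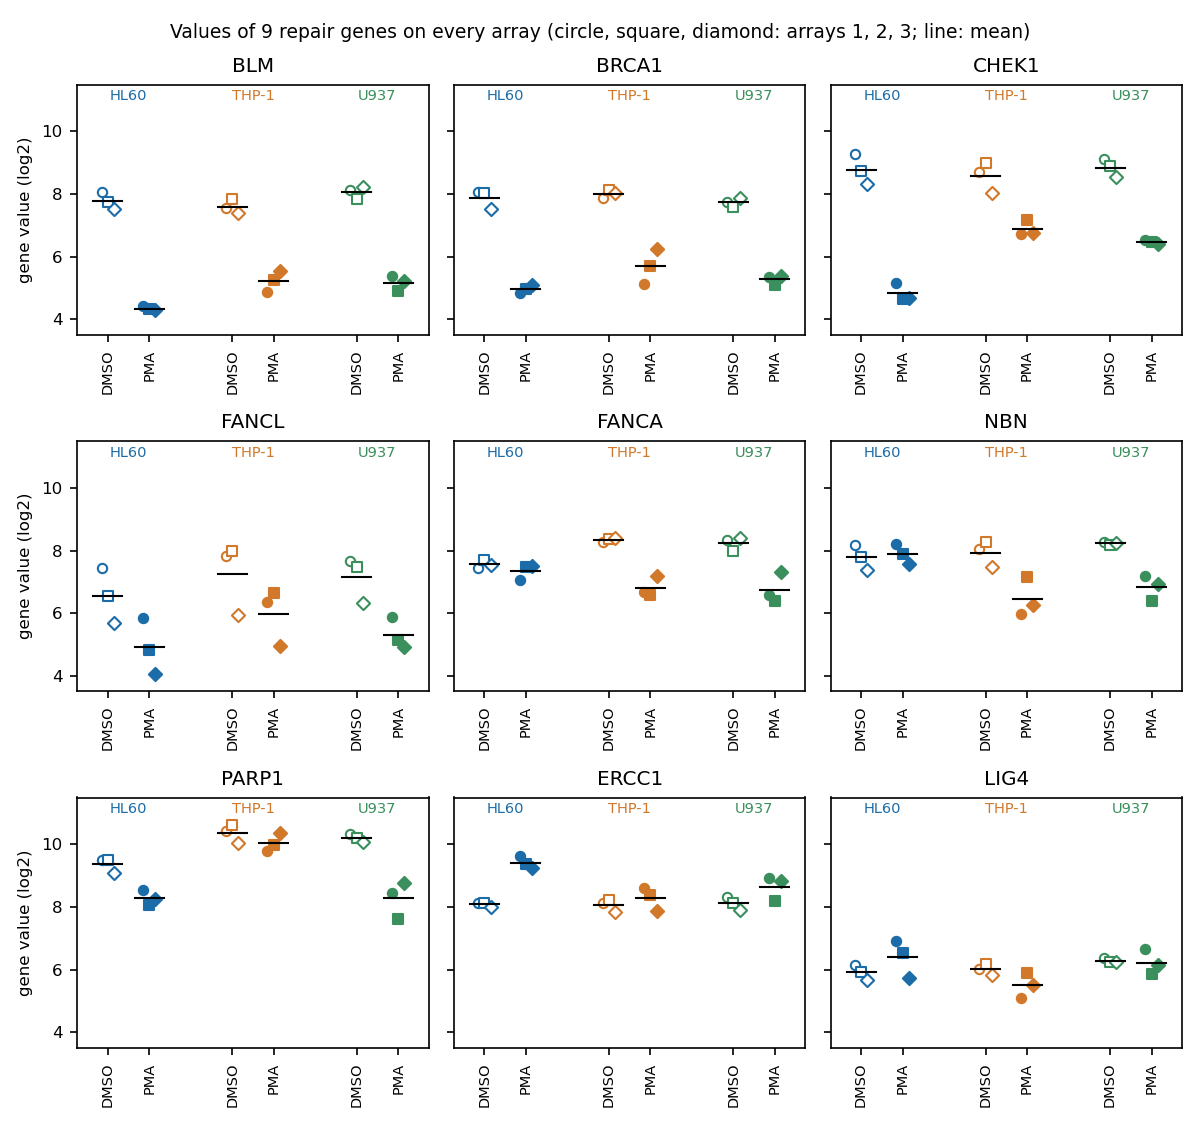
Value of 9 repair genes on each of the 18 arrays (y axis, log2, mean of the gene's probe sets; open markers DMSO, filled PMA; lines, group means; marker shapes, array numbers 1 to 3). BLM, BRCA1 and CHEK1 part in every line, FANCL drops with PMA at every array number, FANCA and NBN part in THP-1 and U937 but overlap in HL60, PARP1 overlaps in THP-1 alone, and ERCC1 lies higher with PMA in HL60.

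In non-homologous end joining most changes were small, and 2 of 5 members were lower in HL60, 1 in THP-1 and 3 in U937. The exception was PRKDC, the catalytic subunit of the DNA-dependent protein kinase. It read 10.48, 10.52 and 10.38 with DMSO and 7.99, 8.34 and 8.48 with PMA in HL60, 10.18, 10.48 and 10.67 against 8.34, 8.71 and 9.45 in THP-1, and 10.52, 10.4 and 11.08 against 8.68, 8.4 and 9.69 in U937. All PMA arrays lay under all DMSO arrays, and the folds were 4.58, 3.06 and 3.35 (adjusted p = 3.37e-05, 0.000906 and 0.000481).

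The Ku subunits XRCC5 and XRCC6, which bind the broken end and recruit that kinase, stayed much nearer to their DMSO values. XRCC5 changed by -0.23, -0.45 and -1.02 (each ± 0.26) and passed in U937 only (adjusted p = 0.588, 0.252 and 0.0082). XRCC6 changed by -0.67, -0.51 and -0.8 (each ± 0.23; adjusted p = 0.047, 0.133 and 0.0177), and in THP-1 it passed with the array numbers as a block (adjusted p = 0.0232). The HL60 call of XRCC6 was lost without any of 11 of the 18 arrays (adjusted p = 0.0518 to 0.225), with the median of probe sets (adjusted p = 0.0506) and with only the arrays compared (adjusted p = 0.0875). Its U937 call was lost without U937 DMSO 1, DMSO 2 or PMA 2 (-0.76 to -0.63, adjusted p = 0.0622 to 0.0769), with the median of probe sets (adjusted p = 0.0522) and with only the arrays compared (adjusted p = 0.0767).

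The ligase LIG4 and its partner XRCC4, which seal the ends, were called in no line. LIG4 read 6.15, 5.91 and 5.66 with DMSO and 6.92, 6.53 and 5.72 with PMA in HL60, for a change of 0.48 ± 0.28 (adjusted p = 0.254). Its THP-1 and U937 changes were -0.52 ± 0.28 and -0.07 ± 0.28 (adjusted p = 0.211 and 0.952). Without HL60 PMA 3 the HL60 change of LIG4 was 0.82 and was called higher (adjusted p = 0.0359). XRCC4 changed by 0.12, -0.59 and -0.98 (each ± 0.38; adjusted p = 0.858, 0.303 and 0.075). In U937 XRCC4 passed without HL60 PMA 1 or U937 PMA 1 (-1.22 to -0.98, adjusted p = 0.0341 to 0.0485). With the array numbers as a block LIG4 passed in THP-1 (adjusted p = 0.0458) and XRCC4 in THP-1 and U937 (adjusted p = 0.0342 and 0.00152).

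Mismatch repair was represented by MSH6, part of the complex that recognises mismatches, and PMS2, part of the complex that nicks the strand. MSH6 read 8.56, 7.65 and 7.29 with DMSO and 6.62, 5.45 and 5.52 with PMA in HL60, 8.02, 8.23 and 6.98 against 6.69, 7.14 and 6.32 in THP-1, and 8.77, 8.75 and 7.8 against 7.04, 6.38 and 6.26 in U937. The groups overlapped in THP-1 alone. MSH6 changed by -1.97 ± 0.41 in HL60 and -1.88 ± 0.41 in U937 (adjusted p = 0.00146 and 0.00252), and by -1.02 ± 0.41 in THP-1 (adjusted p = 0.0868). With the array numbers as a block MSH6 passed in THP-1 (adjusted p = 0.000569). It also passed there when THP-1 DMSO 3 was left out (-1.4, adjusted p = 0.0211).

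PMS2, which has many near-identical pseudogenes that its probe sets may share, changed by -0.87, -0.33 and -0.91 (each ± 0.31; adjusted p = 0.0564, 0.509 and 0.0481). The U937 call of PMS2 was lost without any of 15 of the 18 arrays (adjusted p = 0.0532 to 0.207) and when genes with at least 1 probe set were tested (adjusted p = 0.0506). Its U937 PMA values were 7.24, 6.41 and 8.26 against 8.25, 8.11 and 8.27 with DMSO, so that the PMA 3 array overlapped the controls. Without PMA 2 the change of PMS2 was -0.46 (adjusted p = 0.207) and without PMA 3 it was -1.38 (adjusted p = 0.000513). In HL60 PMS2 passed with the array numbers as a block (adjusted p = 0.0185) and without U937 PMA 2 or U937 PMA 3 (adjusted p = 0.00634 to 0.00904).

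All 3 members of base excision and single-strand break repair fell in HL60 and U937, and 2 of 3 in THP-1. UNG, the glycosylase that removes uracil from DNA, went from 8.35 ± 0.31 to 6.12 ± 0.22 in HL60, from 8.45 ± 0.58 to 7.55 ± 0.4 in THP-1 and from 8.78 ± 0.32 to 7.42 ± 0.26 in U937 (n = 3 each). The folds were 4.67, 1.87 and 2.57 (adjusted p = 9.31e-06, 0.0264 and 0.00158). UNG was lower in every numbered pair, as were 26.4%, 31.4% and 30.4% of all genes in HL60, THP-1 and U937. The THP-1 call of UNG was lost without THP-1 DMSO 1, DMSO 2 or PMA 3 (-0.74 to -0.67, adjusted p = 0.131 to 0.136) and with only the arrays compared (adjusted p = 0.0968). With the median of probe sets UNG was called in neither THP-1 (-0.46, adjusted p = 0.398) nor U937 (-0.9, adjusted p = 0.0711). LIG3, the ligase of this route and of mitochondria, changed by -1.22, -1.26 and -1.42 (each ± 0.25).

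PARP1, which binds strand breaks and marks them with poly(ADP-ribose), read 9.49, 9.5 and 9.1 with DMSO and 8.53, 8.06 and 8.24 with PMA in HL60. The U937 values were 10.32, 10.21 and 10.07 against 8.44, 7.63 and 8.77. Those groups did not overlap, and PARP1 changed by -1.09 ± 0.25 and -1.92 ± 0.25 (2.12-fold and 3.79-fold, adjusted p = 0.00381 and 2.95e-05). In THP-1 its values of 10.44, 10.62 and 10.04 against 9.8, 9.98 and 10.37 overlapped, for a change of -0.32 ± 0.25 (adjusted p = 0.424).

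Nucleotide excision repair held the sole member that rose. ERCC1, which with ERCC4 cuts the damaged strand on its 5′ side, read 8.12, 8.13 and 8 with DMSO and 9.62, 9.38 and 9.26 with PMA in HL60, every PMA array above every DMSO array. This was an increase of 1.34 ± 0.22 log2 units, or 2.52-fold (adjusted p = 0.000175). In THP-1 ERCC1 changed by 0.22 ± 0.22 (adjusted p = 0.548) and in U937 by 0.53 ± 0.22 (adjusted p = 0.109). The U937 values with PMA were 8.92, 8.18 and 8.83 against 8.32, 8.14 and 7.89, and without the PMA 2 array ERCC1 passed at 0.76 (adjusted p = 0.013), as it did with the array numbers as a block (adjusted p = 0.0315). ERCC2, a helicase of the transcription factor TFIIH that opens the damaged site, changed by -1.51, -0.96 and -0.82 (each ± 0.17; adjusted p = 2.55e-06, 0.000447 and 0.00176). Its U937 call was lost with only the arrays compared (adjusted p = 0.0704). XPA, which verifies the lesion, changed by -0.31, -0.17 and -0.91 (each ± 0.36; adjusted p = 0.606, 0.791 and 0.087). In U937 XPA passed without DMSO 3 (-1.16, adjusted p = 0.0451) and with the array numbers as a block (adjusted p = 0.00263).

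The members' changes were alike between lines, with Pearson correlations over the 42 members of 0.8 (HL60 and THP-1), 0.88 (HL60 and U937) and 0.86 (THP-1 and U937), against 0.67, 0.67 and 0.69 over all genes. In order they were alike as well, with Spearman correlations of 0.79, 0.86 and 0.87 over the members. These describe genes and not samples, and genes of 1 array share its scaling and quality. Tests of the difference between lines called 11 members between HL60 and THP-1, 4 between HL60 and U937 and 2 between THP-1 and U937, where 7.78%, 7.73% and 4.77% of all genes were called in either direction. Each line enters 2 of these 3 tests, so they share arrays. A negative difference means a more negative change in the first line named. The shares of members called between HL60 and U937 and between THP-1 and U937 are near those of all genes. With quantile normalization and with centring 12 members differed between HL60 and U937, with BARD1, BLM, BRCA2, BRIP1, ERCC2, EXO1, FANCC and UNG added in both. With the array numbers as a block the HL60 and U937 count was 10, with BRIP1, CHEK2, ERCC1, ERCC2, UNG and XRCC4 added (adjusted p = 0.026, 0.0191, 0.0384, 0.0381, 0.0239 and 0.0166). Between HL60 and THP-1 the block added BARD1, FANCC, LIG4, MSH6 and RAD51AP1 (adjusted p = 0.0161, 0.0347, 0.0195, 0.0235 and 0.00805). The PMA means of RAD51AP1 were under 5.17 in both lines, so the size of its difference is uncertain.

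Between HL60 and THP-1, 8 of the 11 had the more negative change in HL60 (2.89% of all genes did) and 3 in THP-1 (4.89%). The difference was -2.27 ± 0.37 log2 units for CHEK1 (adjusted p = 0.000753), -1.64 ± 0.3 for FANCI (adjusted p = 0.00182) and -1.44 ± 0.31 for EXO1 (adjusted p = 0.00713). It was -1.4 ± 0.28 for BRIP1 (adjusted p = 0.00401), -1.23 ± 0.29 for XRCC2 (adjusted p = 0.0109), -1.08 ± 0.29 for BRCA2 (adjusted p = 0.0251), -1.07 ± 0.28 for BLM (adjusted p = 0.0253) and -1.32 ± 0.4 for UNG (adjusted p = 0.0498). The PMA means of BRCA2 were 3.83 in HL60 and 3.82 in THP-1, each under 5.17 and near the dim end of its line, so its difference cannot be read as a larger fall in HL60. Those of BRIP1 (3.87 and 4.92) also lay under 5.17, which leaves the size of each fall uncertain. The value of 5.17 is a percentile of all probe sets and not a measured limit of detection. The 3 that ran the other way were FANCA (1.33 ± 0.32, adjusted p = 0.0142), NBN (1.57 ± 0.43, adjusted p = 0.0299) and ERCC1 (1.12 ± 0.31, adjusted p = 0.0348). Those of BRIP1, CHEK1, EXO1, FANCA, FANCI and XRCC2 passed under each of the 28 alternatives run. The others did not, and without 1 array at a time the differences were lost for BLM and BRCA2 with 8 of the 18 arrays, ERCC1 with 9, NBN with 8 and UNG with 12 (adjusted p up to 0.0744, 0.0725, 0.0961, 0.0892 and 0.124). Some arrays worked the other way, and BARD1 passed without U937 PMA 2 (-0.95, adjusted p = 0.0384), FANCC without U937 PMA 2 or PMA 3 (-1, adjusted p = 0.0128 to 0.0324) and LIG4 without HL60 PMA 3 (1.34, adjusted p = 0.0288).

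Between HL60 and U937, CHEK1 and FANCI fell more in HL60, with differences of -1.58 ± 0.37 (adjusted p = 0.0126) and -1.05 ± 0.3 (adjusted p = 0.0399; 1.75% of all genes went this way), while FANCA and NBN differed by 1.28 ± 0.32 (adjusted p = 0.0182) and 1.51 ± 0.43 (adjusted p = 0.0376) the other way (5.98%). That of CHEK1 passed under all 28 alternatives. The call of FANCA was lost without HL60 PMA 2, HL60 PMA 3 or U937 DMSO 1 (adjusted p = 0.0507 to 0.0516), FANCI without any of 10 arrays (adjusted p = 0.0513 to 0.109) and NBN without any of 8 (adjusted p = 0.064 to 0.104). Between THP-1 and U937, PARP1 fell more in U937, with a difference of 1.6 ± 0.36 (adjusted p = 0.0124; 3.14% of all genes went this way), and passed under all 28 alternatives. XRCC2 also fell more in U937 (1.09 ± 0.29, adjusted p = 0.0328), a call lost without any of 6 arrays (adjusted p = 0.0757 to 0.0925). BRIP1 passed between HL60 and U937 without THP-1 PMA 1 (-0.87, adjusted p = 0.0368) and ERCC2 without U937 PMA 2 (-0.82, adjusted p = 0.0208).

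Other genes of repair also fell more often than they rose. Of 104 listed, 94 were measured, and 38 were lower and 5 higher in HL60, 35 and 2 in THP-1, and 49 and 0 in U937, with medians of -0.42, -0.59 and -0.8. Over all genes 10.7%, 13.2% and 16.5% were lower, and 12.3%, 9.38% and 5.5% higher. In THP-1 and U937 lower calls thus outnumbered higher ones over all genes as well. In HL60 NEIL3, a glycosylase, changed by -3.69 ± 0.26 (adjusted p = 7.69e-09) and POLQ, the polymerase of microhomology end joining, by -3.63 ± 0.24 (adjusted p = 3.94e-09). RBBP8, which starts end resection, changed by -3.06 ± 0.33 in HL60 and -2.25 ± 0.33 in THP-1. In U937 USP1, which removes ubiquitin from FANCD2, changed by -2.48 ± 0.41 and FIGNL1, a recombination ATPase, by -2.38 ± 0.22. In HL60 the excision repair genes XPC (1.35 ± 0.19, adjusted p = 2.88e-05) and ERCC4 (1.17 ± 0.26, adjusted p = 0.00211), the latter the partner of ERCC1, rose, as did FANCE (1.33 ± 0.28, adjusted p = 0.00172). In THP-1 XRCC1, the scaffold of single-strand break repair, rose by 0.79 ± 0.18 and the clamp subunit HUS1 by 0.75 ± 0.23.

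Genes of the dividing cell fell too. Of 33 measured DNA replication genes 30, 29 and 31 were lower in HL60, THP-1 and U937 (medians -2.25, -1.4 and -2.07), and of 29 mitosis genes 27, 28 and 29 (medians -2.97, -2.14 and -2.06), none higher in either list. Of 18 E2F, RB and DREAM factors 9, 8 and 12 were lower, with 1 higher in HL60 (RB1, 0.93 ± 0.22). MYBL2, a factor of the S and G2 programme, changed by -3.13, -1.92 and -2.24 (each ± 0.21). Of 20 targets of p53, 3, 1 and 5 were lower and 8, 7 and 6 higher, with the cyclin kinase inhibitor CDKN1A up by 3.79 ± 0.18, 3.17 ± 0.18 and 3.36 ± 0.18. Set beside all these lists, 10.7%, 13.2% and 16.5% of all genes were lower in HL60, THP-1 and U937, and 12.3%, 9.38% and 5.5% higher. The lower counts of the p53 targets are not far from those shares. The replication and mitosis genes thus moved in the direction of the repair genes, while more of the p53 targets rose than fell, though only by 6 to 5 in U937. The part of these lists in the members' fall was not tested.

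**Figure D3:**
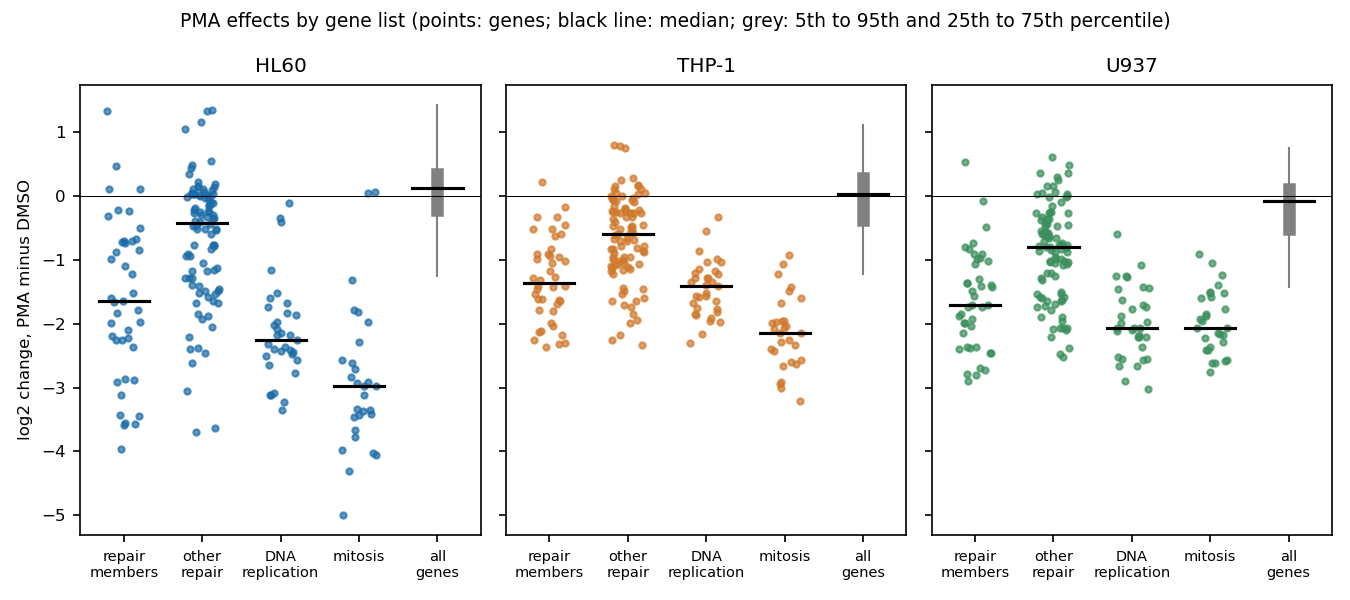
Change with PMA (y axis, log2 units, PMA minus DMSO) of each gene of the 42 members, the 94 other repair genes, the 33 replication and the 29 mitosis genes in each line, beside the spread of all 16241 genes (grey, 5th to 95th and 25th to 75th percentile; black lines, medians). The members' medians of -1.65, -1.36 and -1.71 lie between those of the other repair genes and of the mitosis genes.

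Because the array measures exons, each probe set was also set against its own gene. The usage index is the probe-set value minus the mean of the probe sets of that gene kept for this test (mean over all arrays above the 30th percentile) on the same array, and a positive difference means that a probe set fell less, or rose more, than its gene. Over 981 member probe sets 59 were called in HL60, 21 in THP-1 and 28 in U937 (limma, adjusted p under 0.05 and at least 1 log2 unit), in 22, 14 and 18 members, where 3.46%, 1.79% and 1.23% of 175163 probe sets were called over all genes. Of these, 44, 20 and 24 fell less than their gene or rose, and over all genes 53.5%, 60.2% and 61.1% of called probe sets did. Most members fell, and in a falling gene a probe set that stays level has a positive difference by definition. The share over all genes is therefore not a like baseline. With PMA 16, 2 and 3 of the called probe sets read below 5.17. The U937 count of called probe sets was 46 with the array numbers as a block and 6 without both arrays numbered 2. It was 12 to 14 without U937 DMSO 1, DMSO 2, PMA 1 or PMA 2, but 45 without PMA 3. In THP-1 it was 7 to 11 without DMSO 1, DMSO 2 or PMA 1, and in HL60 38 without DMSO 2.

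Called in all 3 lines were 12 of the 981 probe sets (0.359% of all 175163), in 9 members (BLM, XRCC2, PRKDC, RAD54L, FANCI, BRCA1, RAD54B, LIG3 and FANCG), and all but 1 of them fell less than the gene. In PRKDC, probe set 3134198 read 10.8, 10.75 and 11.08 with DMSO and 11.01, 11.33 and 11.81 with PMA in HL60, while the gene fell. Its usage differed by 2.7 ± 0.29 in HL60, 2.02 ± 0.29 in THP-1 and 1.82 ± 0.29 in U937 (adjusted p = 3.78e-05, 0.00127 and 0.00401). In each line 105 of the 106 probe sets of PRKDC had a lower mean with PMA. RAD54L behaved likewise at probe set 2334673, with means of 9.36 and 9.66 in HL60, 9.53 and 9.65 in THP-1 and 9.71 and 9.69 in U937 (differences 2.67, 2.11 and 2.11, each ± 0.28).

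Other probe sets started below the mean of their gene and fell little. BLM probe set 3608322 read 5.83 with DMSO and 5.99 with PMA in HL60, where its gene went from 8.04 to 4.55 (difference 3.65 ± 0.39, adjusted p = 3.07e-05), and the differences in THP-1 and U937 were 1.91 and 2.17. XRCC2 probe set 3080297 read 6.75 and 6.77 in HL60 (difference 3.06 ± 0.3), with differences of 1.36 in THP-1 and 2.81 in U937. In BRCA1, probe set 3758369 went from 6.53 to 5.94 in HL60 (difference 2.36 ± 0.2, adjusted p = 4.24e-06) and had differences of 1.77 and 1.75 in the other lines. FANCI probe set 3607579 went from 7.9 to 7.04 in HL60 (difference 2.67 ± 0.25). XRCC2 probe set 3080294 was the one that fell more than its gene, from 7.55 to 3.27 in HL60, 6.67 to 3.43 in THP-1 and 7.4 to 2.74 in U937 (differences -1.24, -1.58 and -1.82, adjusted p = 0.0492, 0.021 and 0.0123, each ± 0.34).

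Of the probe sets not called in every line, FANCA probe set 3705068 went from 7.5 to 8.05 in THP-1 while its gene fell (difference 2.09 ± 0.25, adjusted p = 0.000243). In NBN, probe set 3144011 read 9.1 and 9.54 in THP-1 (difference 1.9 ± 0.44, adjusted p = 0.0322). WRN probe set 3092690 read 5.72 and 5.98 in U937 (difference 1.96 ± 0.33, adjusted p = 0.00593). Where in each gene these probe sets lie was not analysed here, and the cause of their usage was not tested.

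**Figure D4:**
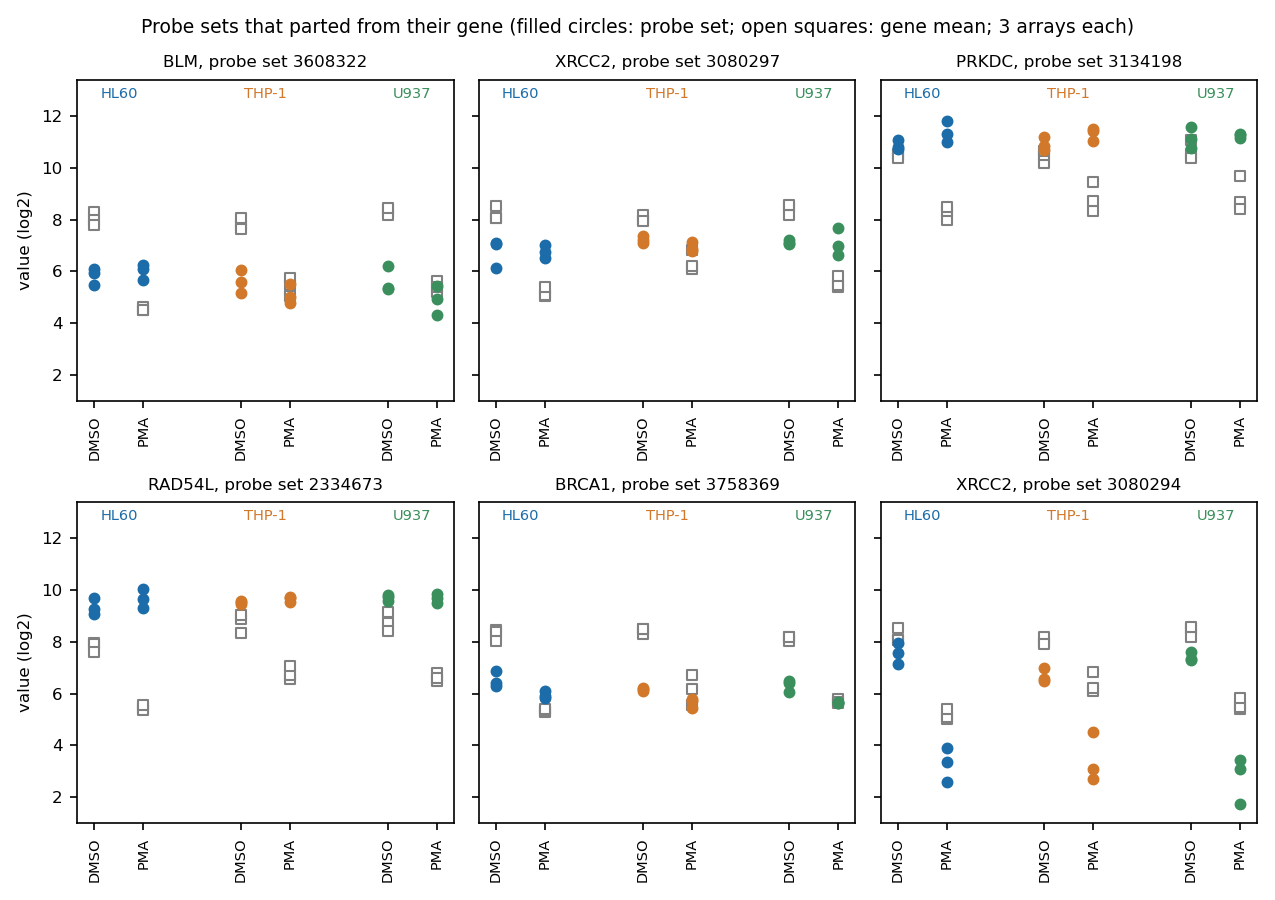
Values (y axis, log2) of 6 probe sets (filled circles) and of their gene's mean (open squares) on the 3 arrays of each group, DMSO and PMA, in HL60, THP-1 and U937. Probe sets of PRKDC and RAD54L stay near their DMSO values while the gene falls, those of BLM, XRCC2 (3080297) and BRCA1 start below the gene and fall little, and XRCC2 probe set 3080294 falls below it.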

How the data were processed

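The 18 arrays were Affymetrix human exon arrays, 3 for each line and treatment. The deposited values are log2 signals of probe sets that the authors made with Expression Console, per the submitters' processing notes. For its version, the background correction, normalization and summary, and the genome build, the answer is not given in the sources used here. No read depth exists for arrays, and it is how many there are that sets the precision.

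Of 287329 probe sets, 261273 had 1 gene symbol, 9155 several and 16901 none in the platform's annotation, and symbols were brought up to date through RefSeq (14546 current, 2300 updated, 95 kept). Genes with at least 3 probe sets were kept (16241) and averaged per array. One limma fit (3.58.1, R 4.3.3) over the 6 groups and all 18 arrays, with empirical Bayes moderation and 12 residual degrees of freedom, gave each change with PMA and its differences between lines, with Benjamini-Hochberg adjustment over all genes and a threshold of 0.05. The median SE was 0.226 for a change and 0.32 for a difference. Usage was tested with limma on 175163 probe sets of 11974 genes, with at least 5 probe sets a gene and a size of at least 1. Values were read with the R package data.table (version 1.17.8) and pandas 2.3.3 (Python 3.11.15), and figures drawn with matplotlib 3.10.9.

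The members and all gene lists were chosen with earlier results of these data known. All 42 members are named, of the other lists at most 3 genes with the largest change in each direction among those called in a line, and of probe sets at most 5 a line. BRCA1 and FANCI probe sets and those that were called in all 3 lines were singled out after their values were seen. Near-identical copies make PMS2, CHEK2 and FANCD2 uncertain.

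Deviations from the group means correlated between DMSO and PMA arrays of the same number at 0.79, 0.48 and 0.58 in HL60, 0.4, 0.64 and 0.65 in THP-1, and 0.45, 0.29 and 0.52 in U937. Arrays of unlike number within a line ran from -0.65 to 0.44. THP-1 DMSO 1 with PMA 2 (0.44) and U937 DMSO 2 with PMA 1 (0.33) exceeded the pairs of their own number. Another fit treated the labels' numbers as pairs. The labels state no pairs, so calls gained with the block rest on an assumed pairing. Tested on simulated data with 100 genes changed by 1 log2 unit and 100 by 2 in HL60, the fit recovered 48 and 97 and called 7 unchanged genes. For the difference between HL60 and THP-1 it recovered 22 and 83, and for usage in HL60 66 of 100 probe sets changed by 2 units and 83 of 100 by 3. The simulated noise was independent between genes and between arrays, unlike the correlated deviations above. These rates may therefore not hold for the real arrays. Alternatives were quantile normalization, centring, the median of probe sets, filters on dim probe sets and on their number, fits on only the arrays compared, the block, array weights, omission of single arrays and of both U937 arrays numbered 2, and, for usage, diffSplice and a stricter filter. The block with quantile normalization was added after seeing the data.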

Additional observations from a re-analysis of the deposited data

Results flagged for a closer look

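The change with PMA differed between lines, by the limma test of the difference itself, in 17 comparisons of 12 members (adjusted p under 0.05 over all genes). These were 11 of 42 members between HL60 and THP-1, 4 between HL60 and U937 and 2 between THP-1 and U937, where 7.78%, 7.73% and 4.77% of all genes were called, so that the last 2 counts are near the share of all genes. Under the 28 alternatives 8 of the 17 passed throughout and 9 were lost in at least 1. Between HL60 and THP-1 the differences were -1.08 for BRCA2, -1.23 for XRCC2, -1.64 for FANCI, -1.4 for BRIP1, -1.44 for EXO1, -1.07 for BLM, -2.27 for CHEK1 and -1.32 for UNG, all with the more negative value in HL60, though for BRCA2 and BRIP1 the PMA means of both lines were under 5.17 and the size of neither fall is known. They were 1.33 for FANCA, 1.57 for NBN and 1.12 for ERCC1, which ran the other way. Between HL60 and U937 they were -1.05 for FANCI, -1.58 for CHEK1, 1.28 for FANCA and 1.51 for NBN. Between THP-1 and U937 they were 1.09 for XRCC2 and 1.6 for PARP1. Of the members named here, CHEK1 had the largest difference, and FANCA and NBN were the ones called lower in THP-1 and U937 with overlapping arrays in HL60. CHEK2 and RAD50 had that pattern of calls and overlap as well, but no difference between lines was called for them in this fit.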

How the results depend on the processing

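The counts of members called lower stayed within 1.5 times under every alternative run, at 27 to 36 in HL60, 28 to 38 in THP-1 and 30 to 40 in U937, and at 26 to 31, 26 to 33 and 32 to 37 without single arrays. No called change reversed. Members called higher were 2 in HL60 with array weights and 1 to 2 without single arrays. In U937 they were 1 (ERCC1) with quantile normalization, centring, the median of probe sets, the replicate block alone or with quantile normalization, array weights and without both arrays numbered 2, and 0 to 1 without single arrays. The array weights had not reached their convergence tolerance. Differences between HL60 and THP-1 were called for 24 members with array weights and 21 with the block and quantile normalization, and for 6 to 13 without single arrays. Between HL60 and U937 they numbered 12 with quantile normalization, 12 with centring, 11 with array weights and 19 with the block and quantile normalization, and 1 to 5 without single arrays. Between THP-1 and U937 they numbered 1 with quantile normalization, 1 with only the arrays compared, and 1 to 2 without single arrays. Usage calls in U937 were 6 without both arrays numbered 2, and 38 to 64 in HL60, 7 to 31 in THP-1 and 12 to 45 in U937 without single arrays. The cause of these shifts was not tested.

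With the pairing of array numbers as a block, members called lower numbered 34, 37 and 40, the differences between HL60 and U937 numbered 10, and usage calls in U937 numbered 46. It changed no call of a member beyond those given in the text. Over all genes, calls that moved by over 1.5 times were as follows. The 2143 lower and 1523 higher in THP-1 became 3357 and 2291 with the block, 4128 and 3083 with array weights and 3665 and 3691 with the block and quantile normalization, with 2617 higher under quantile normalization, 2729 higher under centring and 1372 lower without THP-1 DMSO 2. The 1737 lower and 2004 higher in HL60 became 3619 and 5872 with array weights and 3331 and 3447 with the block and quantile normalization. The 2677 lower in U937 became 4139 with the block and 1654 without both arrays numbered 2. The 894 higher there became 2150 under quantile normalization, 2346 under centring, 1854 with array weights, 3180 with the block and quantile normalization and 1894 without U937 PMA 2. Signal near the dim end of the scale limits the size of the largest falls.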
